A study of Homo sapiens with 6 samples.

Results

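The genes described here are grouped by name as splicing factors, which choose where a pre-mRNA is cut and joined. They comprise SR proteins, hnRNPs, factors that read the 3′ splice site, RBM proteins and regulators that give tissues their own splicing patterns. They were taken by gene symbol, as every listed symbol of the forms SRSF, TRA2A and TRA2B, HNRNP, SF3A and SF3B, U2AF, PTBP, MBNL, CELF, RBFOX, QKI and RBM. The rule found 105 of the 20030 genes listed, namely 14 SR proteins, 25 hnRNPs, 13 3′ splice site factors, 16 tissue-regulated regulators and 37 RBM genes. It used names alone and no measured value. The whole set is called splicing factors below, whether or not each RBM gene acts in splicing.

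RNA was sequenced from SKOV3 cells, a human ovarian adenocarcinoma line, in 3 libraries of cells treated for 24 h with rhCCL20 dissolved in 5% trehalose and 3 libraries of vehicle cells given 5% trehalose for 24 h. rhCCL20 is the recombinant human form of CCL20, a chemokine whose receptor is CCR6, and trehalose is a sugar. All 6 libraries come from this 1 line, and no dose is stated. The labels do not say whether the replicates are separate cultures, and each p-value reflects only the variation among these 6 libraries, which may be technical. In bulk RNA, fewer cells of a kind and less RNA per cell cannot be told apart.

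SR proteins carry an RNA recognition motif and a tail rich in arginine and serine. They bind exonic enhancers, recruit the spliceosome and mostly favour inclusion of the exon they bind. Many hnRNPs bind silencers and work against inclusion, so the balance between both classes sets the fate of many alternative exons. The 3′ splice site is read by the U2AF dimer, in which U2AF2 binds the polypyrimidine tract and U2AF1 the terminal AG, and then by the SF3A and SF3B subunits of the U2 snRNP. Several tissue regulators come as paralogs that replace one another, such as PTBP1 in most cells and PTBP2 in neurons.

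Near-identical copies set a limit on several of these genes, and their coding sequences are shown first for that reason. The values are FPKM, fragment numbers scaled by transcript length and by library total, and a fragment that matches more than 1 gene cannot be placed by its sequence. Coding sequences of all 105 genes were found by symbol in GENCODE 29 on GRCh38. Of these, 70 shared no stretch of 50 bases with a transcript of another gene outside their own locus, 35 shared some and 10 shared at least 50% of their 50-base stretches. U2AF1 at chr21:43092956-43107587 and U2AF1L5 at chr21:6484623-6499261, both on the minus strand, were identical over all 720 coding bases. The first 90 coding bases of both follow, with no capitals because no base differs.

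U2AF1: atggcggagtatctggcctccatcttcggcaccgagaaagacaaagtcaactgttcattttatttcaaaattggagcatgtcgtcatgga

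U2AF1L5: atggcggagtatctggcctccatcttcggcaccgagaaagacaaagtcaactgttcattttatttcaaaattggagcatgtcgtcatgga

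The more distant paralog U2AF1L4, at chr19:35742464-35745445 on the minus strand, differed from U2AF1 at 177 of 659 aligned coding bases. Within the first 90 coding bases the differences numbered 25, and capitals mark them.

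U2AF1: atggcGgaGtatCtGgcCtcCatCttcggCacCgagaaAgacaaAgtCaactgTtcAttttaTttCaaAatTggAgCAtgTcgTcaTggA

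U2AF1L4: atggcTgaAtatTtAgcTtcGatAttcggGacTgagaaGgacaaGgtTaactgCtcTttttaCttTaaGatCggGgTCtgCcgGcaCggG

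The deposited levels of U2AF1 and U2AF1L5 were both low. U2AF1 was listed at 0.110, 0.156 and 0.1001 FPKM in the rhCCL20 libraries, against 0.0550, 0.0575 and 0.0835 FPKM in the vehicle libraries. U2AF1L5 stood at 0.244, 0.257 and 0.296 FPKM in rhCCL20 libraries and at 0.217, 0.340 and 0.192 FPKM in vehicle libraries. Both copies together therefore stayed under 1 FPKM in every library, while U2AF2, the partner of U2AF1 in the dimer, averaged 55.9 ± 3.28 FPKM in rhCCL20 libraries and 54.3 ± 1.09 FPKM in vehicle libraries (SD, n = 3 each). How the authors' software treated fragments that match both copies is not given in the sources used here, so the U2AF1 level is uncertain, and the part of the shared sequence in it was not tested. HNRNPA1 averaged 530.4 ± 15.4 FPKM in rhCCL20 libraries and 542.3 ± 14.0 FPKM in vehicle libraries, and the related gene HNRNPA1L2 averaged 2.09 ± 0.0988 FPKM and 2.02 ± 0.0951 FPKM in the same groups (SD, n = 3 each). HNRNPA1 shared 83.2% of its 50-base stretches with other genes, HNRNPA3 89.8% and HNRNPC 53.5%, against 100% for U2AF1. The single gene that shared most with each was HNRNPA1P7 (58.5%), HNRNPA3P6 (66.9%) and HNRNPCP2 (48.9%). The levels of HNRNPA1, HNRNPA3 and HNRNPC are therefore uncertain too, though each shared less than U2AF1 did. The same limit holds for HNRNPA1L2, which shared 51.4%, and for the listed levels of the HNRNPCL genes. HNRNPCL1 shared 54.1%, HNRNPCL2 52.3%, and HNRNPCL3 and HNRNPCL4 94.0% each.

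The cell line was checked against markers. The epithelial keratins KRT8 and KRT18 ranged over the 6 libraries between 605 and 677 FPKM and between 529 and 619 FPKM, and the mesenchymal filament gene VIM between 323 and 349 FPKM. EPCAM, CDH1 and KRT19 stayed under 1 FPKM, so 2 of 5 epithelial markers reached that level. CDH2 and FN1 stayed under 1 FPKM too, so VIM was the 1 of 3 mesenchymal markers to reach it. Of 5 ovarian and Müllerian markers, MSLN alone reached it, at 24.7 to 28.4 FPKM, and PAX8, WT1, MUC16 and SOX17 did not. Of 8 neuronal markers 2 reached 1 FPKM, with a summed level of 8.10 to 8.53 FPKM in rhCCL20 libraries and 7.95 to 8.25 FPKM in vehicle libraries. No muscle marker and no germ line marker reached it. Of 6 leukocyte markers 2 did, CD68 at 10.6 to 11.5 FPKM and LYZ, while PTPRC, CD14, AIF1 and ITGAM did not. LYZ had 3.58, 2.92 and 4.27 FPKM in rhCCL20 libraries, against 5.24, 0.692 and 0.469 FPKM in vehicle libraries.

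Summed FPKM ran between 301805 and 310080 per library, and 10191 to 10238 genes reached 1 FPKM. Fragment counts cannot be read from FPKM. The depth is therefore unknown, and only the depth relative to vehicle replicate 1 could be estimated, at 1.009, 1.06 and 1.09 for the rhCCL20 libraries and 0.943 and 0.984 for the other vehicle libraries. Library 3 of the rhCCL20 group stood apart from the rest. On the first principal component of all tested genes, which held 38.8% of the variance, it lay at 11.7, against -0.737 and -3.96 for the other rhCCL20 libraries and -3.59 to -1.65 for the vehicle libraries. Several of the results that rest on this library are given below with and without it, but not all.

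The splicing factors were mostly well expressed. Of the 105 genes, 86 (81.9%) had at least 1 FPKM in at least 3 libraries and were tested, against 10263 of all 20030 genes (51.2%). Their median level over the 6 libraries was 25.0 FPKM, against 8.62 FPKM over all genes tested, and 69 of the 86 lay above the median of all tested genes. A mean of at least 100 FPKM was reached by 17 of them. The other 19 stayed under 1 FPKM in every library, and 6 of these were listed at 0 throughout, namely HNRNPCL2, HNRNPCL3, HNRNPCL4, RBFOX1, RBM11 and RBM46. Together the 105 genes took 1.57% to 1.61% of the summed FPKM of a library.

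Among the SR proteins, SRSF9, SRSF2 and SRSF3 led, with means over the 6 libraries of 146, 144 and 136 FPKM. Neighbours in this leading trio overlapped in their library values, so their order is not settled. SRSF1, the founding SR protein and an activator of many exons, followed at 102 FPKM, then SRSF6 at 81.1 and SRSF5 at 60.1 FPKM. SRSF2 had 147.3, 150.0 and 140.5 FPKM in rhCCL20 libraries, against 139.5, 144.9 and 144.5 FPKM in vehicle libraries. SRSF3 had 140.5, 140.3 and 132.1 FPKM in rhCCL20 libraries, against 133.3, 136.5 and 134.5 FPKM in vehicle libraries. In both genes the groups overlapped, with the third rhCCL20 library the lowest or next to it. Of the 14 SR genes only SRSF12 stayed under 1 FPKM in every library. The summed level of all 14 was 862 to 894 FPKM in rhCCL20 libraries and 854 to 870 FPKM in vehicle libraries, which overlap.

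The transformer-2 homologs TRA2A and TRA2B are enhancer-binding activators related to the SR proteins. TRA2B averaged 36.3 ± 1.54 FPKM in rhCCL20 libraries and 35.9 ± 0.523 FPKM in vehicle libraries, and TRA2A averaged 18.0 ± 0.542 FPKM and 17.5 ± 0.368 FPKM in the same groups (SD, n = 3 each). TRA2B thus made up 66.1% to 67.7% of the pair in every library.

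The hnRNPs held the highest levels. HNRNPA1, a repressor of many exons, led with a mean over all libraries of 536 FPKM, and HNRNPA2B1, its close relative, followed at 317 FPKM. HNRNPK, which binds C-rich RNA, stood at 249 FPKM, HNRNPAB at 220 FPKM, HNRNPF, which binds runs of G, at 140 FPKM, and HNRNPC, which binds runs of U, at 131 FPKM. HNRNPA1 had 531, 545.4 and 514.7 FPKM in rhCCL20 libraries, against 533.9, 558.5 and 534.4 FPKM in vehicle libraries. HNRNPA2B1 had 319.1, 323.0 and 305.2 FPKM in rhCCL20 libraries, against 314.8, 323.5 and 316.8 FPKM in vehicle libraries. The third rhCCL20 library was the lowest of 6 for both genes, and the groups overlapped. Within the A group, HNRNPA1 took 49.2% to 50.6% of the summed FPKM, HNRNPA2B1 29.2% to 29.9%, HNRNPA0 10.6% to 12.4% and HNRNPA3 9.14% to 9.499%. Within the F and H group, HNRNPF took 47.9% to 49.6% and HNRNPH1 24.7% to 27.0%. The lowest tested hnRNP was HNRNPA1L2, and the 4 HNRNPCL genes stayed under 1 FPKM.

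**Figure D1:**
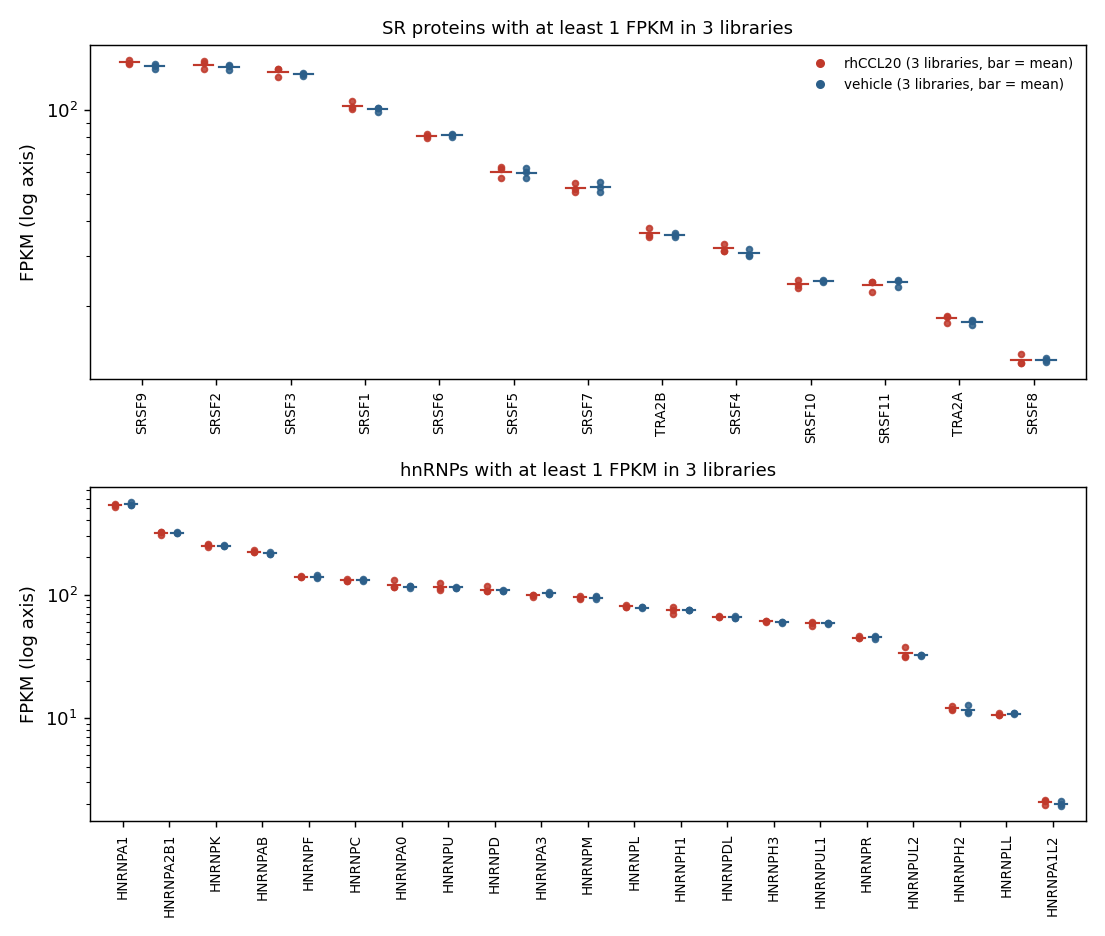
FPKM of the tested SR proteins (upper panel) and hnRNPs (lower panel) on a log axis, in the 3 rhCCL20 libraries (red points) and the 3 vehicle libraries (blue points), with bars at the group means. The levels span from 536 FPKM for HNRNPA1 to 2.05 FPKM for HNRNPA1L2 among the hnRNPs, and the points of both groups lie close together for each gene.

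Among the 3′ splice site factors, SF3B5 and SF3B6, small subunits of SF3B, led with means of 185 and 105 FPKM. SF3B2 followed at 64.3 FPKM, SF3B1, the large scaffold that holds the branch point helix, at 60.9 FPKM, SF3B4 at 59.4 FPKM and SF3A3 at 49.9 FPKM. SF3B1 had 60.8, 59.5 and 65.0 FPKM in rhCCL20 libraries, against 59.5, 59.1 and 61.3 FPKM in vehicle libraries. SF3B2 had 62.1, 61.6 and 76.2 FPKM in rhCCL20 libraries, against 60.0, 63.7 and 62.3 FPKM in vehicle libraries. Library 3 of the rhCCL20 group was the highest of 6 for SF3B1 and SF3B2 and also for SF3A1, chosen after its values were seen, with 22.4, 22.0 and 28.2 FPKM in rhCCL20 libraries and 22.9, 22.3 and 23.5 FPKM in vehicle libraries. The log2 fold change of SF3B2, rhCCL20 minus vehicle, was 0.096 with all libraries and -0.0032 without that library, and that of SF3A1 was 0.069 with all libraries and -0.041 without it. U2AF1L4, the lowest tested factor of this class, had 2.24, 1.30 and 1.36 FPKM in rhCCL20 libraries, against 2.35, 1.84 and 1.27 FPKM in vehicle libraries, and its interval was the widest of all 86 genes, from -0.45 to 0.25.

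The tissue-regulated families were each carried by 1 or a few members. PTBP1, which represses neuronal exons outside neurons, took 81.5% to 83.4% of the summed FPKM of its family, PTBP3 11.6% to 12.6% and the neuronal paralog PTBP2 4.98% to 6.16%. RBFOX2 took 99.9% to 100% of the RBFOX family and CELF1 99.2% to 99.7% of the CELF family. RBFOX1 was listed at 0 in every library, and RBFOX3, CELF3, CELF4 and CELF6, all best known from neural tissue, were under 0.1 FPKM in every library, as were CELF2 and CELF5. MBNL1, which drives adult splicing patterns in muscle, took 61.5% to 62.9% of its family, MBNL2 30.6% to 32.6% and MBNL3 5.25% to 6.51%. In these libraries PTBP1 was 14.0-fold above PTBP2, CELF1 658-fold above CELF2, HNRNPL 7.40-fold above HNRNPLL, TRA2B 2.03-fold above TRA2A and MBNL1 1.95-fold above MBNL2, in FPKM averaged over both groups.

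RBFOX2 had 4.23, 4.30 and 5.69 FPKM in rhCCL20 libraries, against 4.89, 4.55 and 4.92 FPKM in vehicle libraries. Library 3 of the rhCCL20 group was the highest of all and the other rhCCL20 libraries the lowest, so the log2 fold change of -0.020 became -0.14 without that library, 0.042 without rhCCL20 replicate 1 and 0.033 without rhCCL20 replicate 2. QKI, a regulator of splicing and of circular RNA, had 9.32, 9.87 and 10.7 FPKM in rhCCL20 libraries, against 9.89, 8.95 and 9.41 FPKM in vehicle libraries. CELF1, which acts opposite to MBNL1 on many exons, had 22.7, 21.4 and 22.9 FPKM in rhCCL20 libraries, against 22.3, 20.99 and 22.3 FPKM in vehicle libraries. For QKI and CELF1 the groups overlapped.

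**Figure D2:**
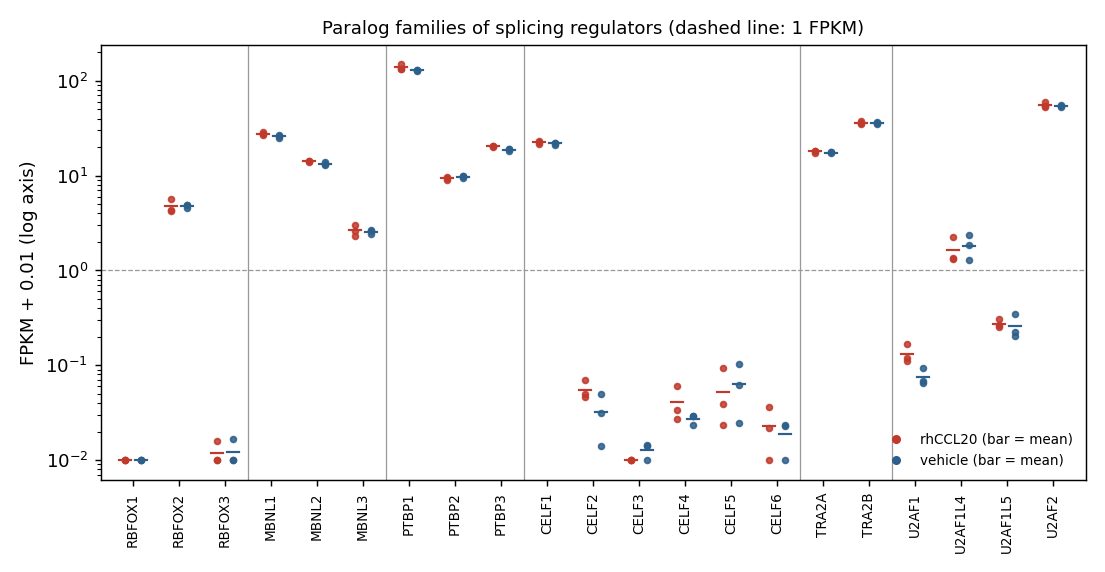
FPKM plus 0.01 on a log axis for the RBFOX, MBNL, PTBP, CELF, TRA2 and U2AF genes, in the 3 rhCCL20 libraries (red points) and the 3 vehicle libraries (blue points), with bars at the group means and a dashed line at 1 FPKM. RBFOX2 and CELF1 stand alone above the line in their families, while the MBNL, PTBP and TRA2 families have every member above it.

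The RBM genes are a broad class named for an RNA binding motif. RBM42 led at a mean of 53.3 FPKM, followed by RBM3, which is induced by cold, at 51.4 FPKM and RBM39, a splicing factor related to U2AF2, at 51.3 FPKM. RBM12 stood at 26.4 FPKM, RBM8A, a core subunit of the exon junction complex, at 25.4 FPKM and RBM17, which binds the 3′ splice site, at 24.6 FPKM. RBM42, RBM39, RBM12, RBM8A and RBM17 had overlapping groups. The muscle regulators RBM20 and RBM24 stayed under 1 FPKM. RBM24 had 0.150, 0.228 and 0.167 FPKM in rhCCL20 libraries, against 0.306, 0.327 and 0.3005 FPKM in vehicle libraries, and RBM20 had 0.103, 0.1002 and 0.106 FPKM in rhCCL20 libraries, against 0.1202, 0.112 and 0.123 FPKM in vehicle libraries. Every rhCCL20 value of RBM24 and of RBM20 lay below every vehicle value, at levels too low for the test. Both belong to the 5 muscle markers. The summed level of those 5 was 0.4997 to 0.630 FPKM in rhCCL20 libraries and 0.818 to 0.872 FPKM in vehicle libraries. This sum includes RBM24 and RBM20 themselves, so it cannot show a pattern of muscle genes apart from them. Of the others, DES had 0.137 to 0.226 FPKM in rhCCL20 libraries and 0.282 to 0.341 FPKM in vehicle libraries. ACTA1 overlapped, at 0.0724 to 0.162 FPKM in rhCCL20 libraries and 0.0532 to 0.139 FPKM in vehicle libraries. MYOG was at 0 throughout. Whether muscle genes have a part in the lower RBM24 and RBM20 values was not tested. Of the 13 genes under 1 FPKM that were not at 0 throughout, U2AF1, RBM20 and RBM24 had groups that did not overlap. With them, 14 of the 99 splicing factors above 0 in a library had such groups, against 9.92% of all 16355 genes above 0 in a library.

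The comparison of rhCCL20 with vehicle addressed whether the treated cells set these splicing factors at other levels. None of the 86 tested genes passed an adjusted p of 0.05 in limma, with 1 of all 10263 genes past it (0.00974%), and that gene was no splicing factor. An unadjusted limma p under 0.05 was reached by 2 of the 86, RBM6 and PTBP3, which is 2.33% of them, against 485 genes in all (4.73%). No other test was run across genes. The log2 fold changes of the 86, on the log2(FPKM + 1) scale and rhCCL20 minus vehicle, ran from -0.18 for RBM6 to 0.12 for SF3A2. Their median was 0.013, against 0.012 over all genes tested, and 50 were above 0 and 36 below it. The share above 0 was 58.1%, against 57.8% over all genes tested. Without rhCCL20 replicate 3 the median was -0.0022 for the 86 genes and -0.0011 for all genes tested, so both directions turned.

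On the scale of FPKM + 1, which understates the change of low genes, the intervals of these differences were narrow. Like the p-values, they reflect only the variation among these 6 libraries, which may be technical. The folds that follow are folds of FPKM + 1. The 95% interval of limma lay within 1.25-fold in either direction for 85 of the 86 genes (98.8%), against 9750 of all 10263 genes tested, and U2AF1L4 was the exception. It lay within 1.2-fold for 83 of them and within 1.5-fold for all 86. The SE of these log2 fold changes had a median of 0.046, against 0.057 over all genes tested. The median coefficient of variation of FPKM over the 6 libraries was 3.71% for the splicing factors and 5.54% for all genes tested, whose levels were lower.

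**Figure D3:**
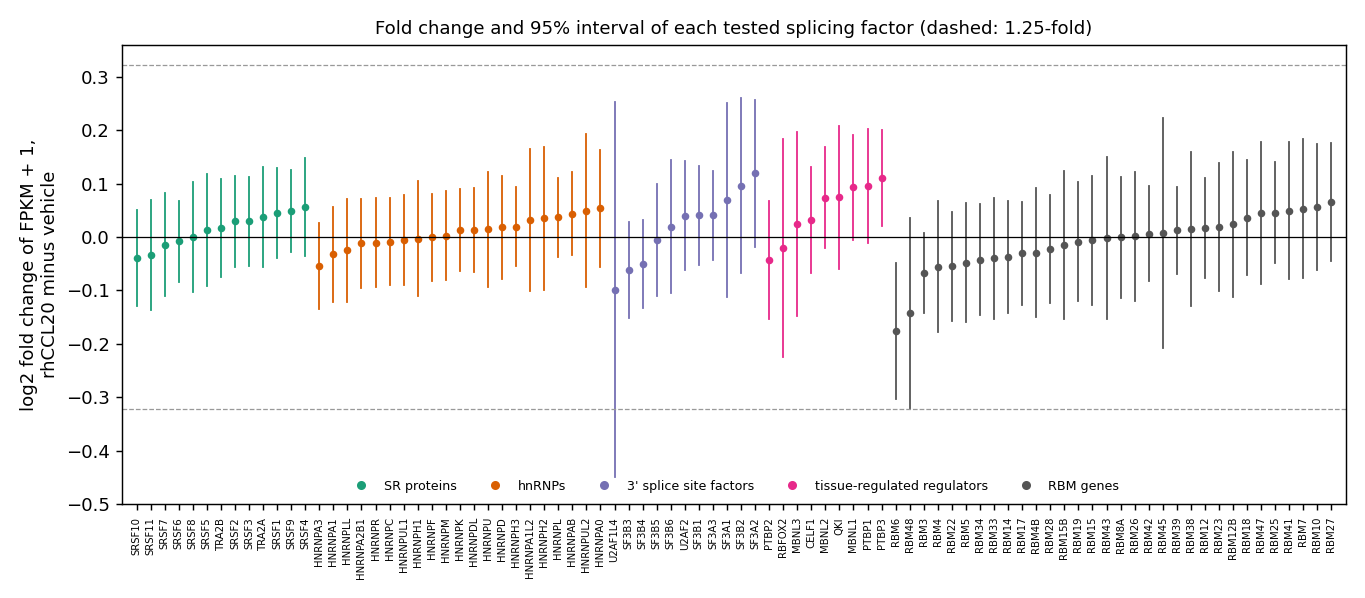
log2 fold change of FPKM + 1, rhCCL20 minus vehicle, for each of the 86 tested splicing factors (points) with the 95% interval of limma (lines), coloured by class, and dashed lines at 1.25-fold. The points run from -0.18 for RBM6 to 0.12 for SF3A2, and the interval of U2AF1L4 alone crosses a dashed line.

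By class, 9 of the 13 tested SR genes were above 0 and 4 below, with a median log2 fold change of 0.017. Of 21 hnRNPs 12 were above 0 and 9 below, with a median of 0.013, and of 11 3′ splice site factors 7 were above and 4 below, with a median of 0.040. Of 9 tissue-regulated genes 7 were above and 2 below, with a median of 0.073, and of 32 RBM genes 15 were above and 17 below, with a median of -0.0011. Without rhCCL20 replicate 3 the median was -0.00097 for the hnRNPs, -0.0032 for the 3′ splice site factors, 0.025 for the tissue-regulated genes, -0.019 for the RBM genes and 0.029 for the SR genes. When each of the 6 libraries was left out in turn, the median ranged from -0.019 to 0.012 for the RBM genes, from 0.0093 to 0.029 for the SR genes and from 0.025 to 0.097 for the tissue-regulated genes, with the RBM median above 0 without rhCCL20 replicate 1 (0.012), rhCCL20 replicate 2 (0.0062) or vehicle replicate 3 (0.0022). The classes share their libraries, so these medians are a description.

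In 11 of the 86 genes (12.8%) every rhCCL20 value lay on one side of every vehicle value, against 11.0% of all genes tested. Of these, 8 were higher in rhCCL20 libraries (background 6.88%) and 3 lower (background 4.13%). The tissue-regulated class held 4 of the 8, PTBP1, PTBP3, MBNL1 and MBNL2, among 9 tested genes (44.4%). The RBM class held 2 of the 3, RBM3 and RBM6, among 32 tested genes (6.25%). The hnRNPs held 3 among 21 tested genes, the 3′ splice site factors 1 among 11 and the SR genes 1 among 13. The limma adjusted p was 0.937 for each of the 11 genes. Without rhCCL20 replicate 3, 26 of the 86 genes (30.2%) had groups that did not overlap, against 21.9% of all genes tested. Leaving out rhCCL20 replicate 1, rhCCL20 replicate 2 or vehicle replicate 1 gave 18 genes each (20.9%), against 21.4%, 22.9% and 20.2% of all genes tested. Leaving out vehicle replicate 2 gave 21 genes (24.4%), against 20.2%, and leaving out vehicle replicate 3 gave 16 genes (18.6%), against 18.5%.

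RBM6, at chr3:49940007-50100045 on the plus strand, is a relative of the splicing factors RBM5 and RBM10. It had 9.15, 8.45 and 7.85 FPKM in rhCCL20 libraries, against 9.62, 9.66 and 9.83 FPKM in vehicle libraries. All rhCCL20 values were below the vehicle values, and the spread was wider in the rhCCL20 group, at 8.49 ± 0.651 FPKM, against 9.70 ± 0.111 FPKM in the vehicle group (SD, n = 3 each). The log2 fold change was -0.18 (SE 0.057, 95% interval -0.30 to -0.049), with an unadjusted limma p of 0.0117 and an adjusted p of 0.937. Without rhCCL20 replicate 3 it was -0.13. RBM6 took 19.7% to 22.9% of the summed FPKM of RBM5, RBM6 and RBM10 in rhCCL20 libraries and 23.9% to 24.5% in vehicle libraries. Exons of RBM6 and RBM5 overlap on the same strand by 456 bases, which is 6.24% of RBM6, and RBM5 had 12.5, 12.3 and 11.96 FPKM in rhCCL20 libraries, against 11.95, 12.9 and 13.3 FPKM in vehicle libraries.

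PTBP3, at chr9:112217716-112333667 on the minus strand, is the paralog of PTBP1 first known from blood-forming cells. It had 20.5, 19.9 and 20.8 FPKM in rhCCL20 libraries, against 19.1, 18.3 and 19.0 FPKM in vehicle libraries. The gap between the groups was slightly wider than the range within either. The log2 fold change was 0.11 (SE 0.040, 95% interval 0.022 to 0.20), with an unadjusted limma p of 0.0200 and an adjusted p of 0.937, and it was 0.098 without rhCCL20 replicate 3.

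PTBP1, at chr19:797075-812327 on the plus strand, had 132.8, 133.3 and 148.9 FPKM in rhCCL20 libraries, against 130.04, 126.4 and 131.0 FPKM in vehicle libraries. The third rhCCL20 library was far above the other 5. The log2 fold change was 0.096 (95% interval -0.010 to 0.20) and 0.043 without that library. MBNL1, at chr3:152243828-152465780 on the plus strand, had 26.9, 27.5 and 28.9 FPKM in rhCCL20 libraries, against 26.7, 24.9 and 26.3 FPKM in vehicle libraries, a log2 fold change of 0.093 (95% interval -0.0050 to 0.19). MBNL2 had 14.1, 14.2 and 14.1 FPKM in rhCCL20 libraries, against 13.9, 13.2 and 13.1 FPKM in vehicle libraries. The nearest values of the groups were close in both MBNL genes. RBM3, at chrX:48574449-48579066 on the plus strand, had 50.6, 50.4 and 49.4 FPKM in rhCCL20 libraries, against 52.1, 53.1 and 52.6 FPKM in vehicle libraries, a log2 fold change of -0.067 (95% interval -0.14 to 0.0076). Its libraries were tight within each group.

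The other genes without overlap, apart from SRSF9 and HNRNPAB among the highest of their classes, were chosen after their values were seen. SRSF9 had 146.3, 151.7 and 148.1 FPKM in rhCCL20 libraries, against 144.1, 146.1 and 140.8 FPKM in vehicle libraries, and HNRNPAB had 220.4, 220.6 and 229.0 FPKM in rhCCL20 libraries, against 214.9, 219.7 and 215.2 FPKM in vehicle libraries. In both, the nearest values of the groups were less than 1 FPKM apart. SF3A2 had 29.6, 29.3 and 34.9 FPKM in rhCCL20 libraries, against 28.6, 29.1 and 28.1 FPKM in vehicle libraries, so its log2 fold change of 0.12, the highest of the 86, was 0.040 without the third rhCCL20 library. HNRNPL, which binds CA repeats, had 80.0, 79.4 and 82.3 FPKM in rhCCL20 libraries, against 79.0, 78.8 and 77.8 FPKM in vehicle libraries. HNRNPA3 had 100.04, 100.03 and 95.5 FPKM in rhCCL20 libraries, against 101.0, 104.5 and 101.6 FPKM in vehicle libraries. Exons of SRSF9, SF3A2 and HNRNPAB overlap those of a gene on the opposite strand by 46.2%, 12.7% and 9.14% of their bases, and whether the authors counted by strand is not stated in these sources.

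**Figure D4:**
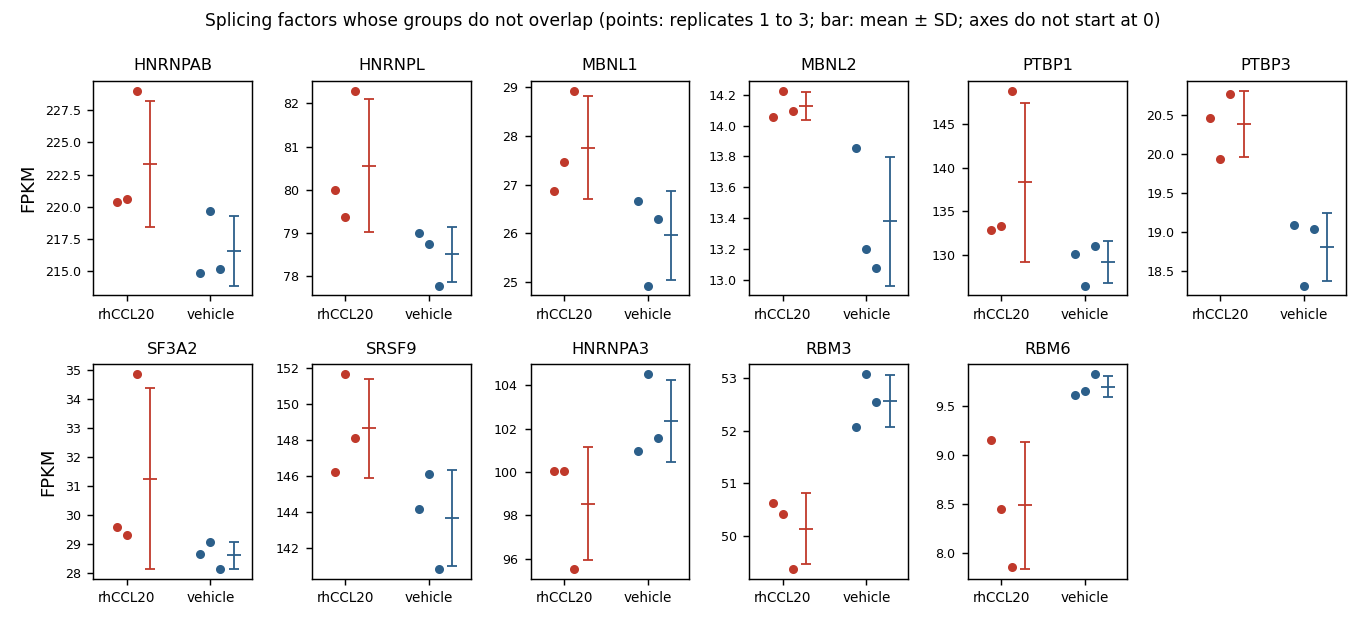
FPKM of the 11 splicing factors whose groups did not overlap, with a point for each of rhCCL20 replicates 1 to 3 (red, left) and vehicle replicates 1 to 3 (blue, right) and the mean ± SD beside them. The axes do not start at 0 and differ between panels, and in PTBP1 and SF3A2 the third rhCCL20 library lies far above the rest.

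The third rhCCL20 library was the one farthest from the median of the 6 for 42 of the 86 splicing factors (48.8%), against 38.5% of all genes tested. It was the highest of 6 for 36 of them (41.9%), against 37.1% of all genes tested, and the lowest for 18 (20.9%), against 18.1%. HNRNPA0, HNRNPUL2, SF3A1, SF3A2, SF3B2 and RBFOX2 were among those where it was highest, while RBM6 was lowest in it. HNRNPUL2 had 31.9, 30.9 and 37.5 FPKM in rhCCL20 libraries, against 31.9, 32.1 and 32.5 FPKM in vehicle libraries, and HNRNPA0 had 116.1, 115.8 and 130.2 FPKM in rhCCL20 libraries, against 113.1, 117.8 and 117.4 FPKM in vehicle libraries. These genes were chosen after their values were seen.

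**Figure D5:**
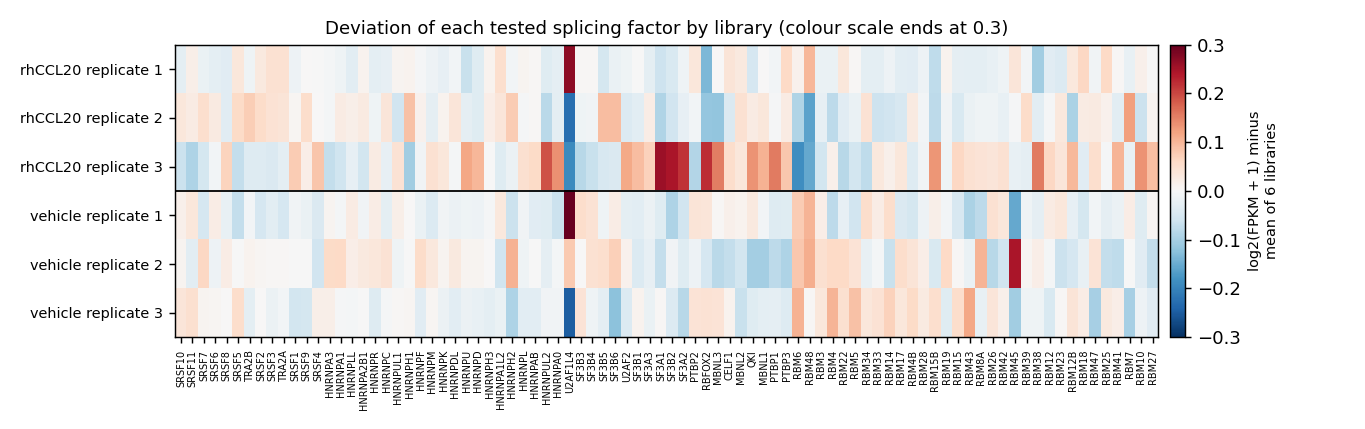
Deviation of log2(FPKM + 1) from the mean of the 6 libraries for each tested splicing factor (columns), with the rhCCL20 libraries above the line and the vehicle libraries below it. The colour scale ends at 0.3 in either direction, and in the row of rhCCL20 replicate 3 the cells of SF3A1, SF3B2, SF3A2, HNRNPUL2 and RBFOX2 are dark red. U2AF1L4 is dark in most rows of both groups.

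Ratios within a library were compared for 6 pairs of related genes, as log2 of (FPKM + 1) of one over the other. In PTBP2 over PTBP1 the ratio was -3.75 ± 0.15 in rhCCL20 libraries and -3.61 ± 0.0062 in vehicle libraries (SD, n = 3 each), a difference of -0.14 (two-sided exact permutation p = 0.1, the smallest this design allows, and 0.3 after Benjamini-Hochberg adjustment over the 6 pairs). The rhCCL20 libraries stood at -3.64, -3.68 and -3.92 and the vehicle libraries at -3.60, -3.61 and -3.61, so all rhCCL20 values were lower. Without rhCCL20 replicate 3 the difference was -0.052. HNRNPLL over HNRNPL was -2.81 ± 0.048 in rhCCL20 libraries and -2.75 ± 0.0038 in vehicle libraries, a difference of -0.062 with the same exact permutation p of 0.1 and adjusted p of 0.3, and -0.041 without rhCCL20 replicate 3. HNRNPA2B1 over HNRNPA1 differed by 0.020 (exact permutation p = 0.2, adjusted 0.4), and by 0.010 without vehicle replicate 2 and 0.013 without rhCCL20 replicate 1. MBNL2 over MBNL1 differed by -0.020 and TRA2A over TRA2B by 0.021, each with an exact permutation p of 0.6 (adjusted 0.72). CELF2 over CELF1 differed by 0.0017 (exact permutation p = 0.9, adjusted 0.9). CELF2 reached at most 0.060 FPKM, so with 1 added this ratio follows CELF1 almost alone and cannot show a change of CELF2. No pair could pass 0.05 in a design of 3 libraries against 3.

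Other parts of the splicing machinery were read from 7 further lists, and no gene of any list passed an adjusted p of 0.05 in limma. Over the 128 tested genes of these lists, 64 had a log2 fold change above 0 and 64 below. The share above 0 was 50%, against 57.8% over all genes tested. The counts of the single lists were not tested. Of 27 core snRNP proteins 10 were above 0 and 17 below, and SNRPC, a U1 snRNP protein that helps to read the 5′ splice site, had the smallest p, with 119 ± 8.67 FPKM in rhCCL20 libraries and 111 ± 3.16 FPKM in vehicle libraries (SD, n = 3 each). Of 24 Prp19 complex and spliceosomal ATPase genes 12 were above and 12 below, led by CWC22, which loads the exon junction complex, with 7.66 ± 0.465 FPKM in rhCCL20 libraries and 6.85 ± 0.466 FPKM in vehicle libraries. SR protein kinases and phosphatases, which set the phosphate on the SR tails, were above in 6 and below in 6 of 12, and CLK2 had 10.8 ± 0.795 FPKM in rhCCL20 libraries and 11.6 ± 0.5002 FPKM in vehicle libraries. Of 19 SR-related coactivators 7 were above and 12 below. SCAF4, a factor of the polymerase tail and of poly(A) site choice, led this list with 3.01 ± 0.131 FPKM in rhCCL20 libraries and 3.42 ± 0.167 FPKM in vehicle libraries.

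Of 23 further tissue-regulated regulators 13 were above 0 and 10 below, and the epithelial regulator ESRP2 averaged 4.77 ± 0.382 FPKM in rhCCL20 libraries and 5.24 ± 0.117 FPKM in vehicle libraries. Of 9 minor spliceosome proteins 5 were above and 4 below, led by ZCRB1 with 27.4 ± 1.90 FPKM in rhCCL20 libraries and 25.2 ± 1.79 FPKM in vehicle libraries. Of 14 exon junction and nonsense-mediated decay factors, which act on the unproductive transcripts that many SR genes make of themselves, 11 were above and 3 below. UPF3A, a decay factor, had the smallest p of this list, with 4.92 ± 0.271 FPKM in rhCCL20 libraries and 5.61 ± 0.167 FPKM in vehicle libraries, a log2 fold change of -0.16 with an unadjusted limma p of 0.0170 and an adjusted p of 0.937. Of the 128 genes tested over the 7 lists, 3 reached an unadjusted limma p under 0.05, CWC22, SCAF4 and UPF3A, which is 2.34% of them, against 4.73% of all genes tested. Groups did not overlap for 11 of the 128 (8.59%), 3 higher and 8 lower in rhCCL20 libraries, against 11.0% of all genes tested (6.88% higher and 4.13% lower), namely 1 of the core snRNP proteins, 2 of the Prp19 and ATPase genes, 4 of the SR-related coactivators (all lower), 1 of the further tissue-regulated regulators, 3 of the exon junction and decay factors and 0 of the kinase and minor spliceosome lists.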

How the data were processed

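Total RNA of 6 SKOV3 samples was extracted with Trizol and prepared with an Illumina TruSeq RNA kit, per the labels' protocols. Tools named in the submitters' processing notes are Trimmomatic, HISAT2, Cufflinks and HTSeq, and the named build is GRCh38; no version, role or order is attached. The values the authors deposited are FPKM, per the file headers, with 1 value per gene symbol and library. The authors' annotation, strand use and filters are unstated, and the depth is unknown. No column went unused.

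On log2(FPKM + 1) values, limma 3.58.1 in R 4.3.3 (eBayes with a trend) was fitted with group alone to every gene that reached 1 FPKM in 3 or more libraries, with Benjamini-Hochberg adjustment over all 10263 genes. Fold changes on this scale understate the change of low genes. Count tests were not used, since the values are FPKM. The procedure was tested on simulated data. The genes and all lists were chosen with earlier results of these data known, so no list was tested as a set. Named genes are the 5 with the smallest p, every RBFOX, MBNL, PTBP, CELF, TRA2, U2AF and QKI gene, the 6 highest of the SR, hnRNP, SF3 and RBM genes, those under 1 FPKM throughout (by symbol or count), and the smallest p of each further list. All 143 symbols of those lists were found, of which 2, SRSF11 and RBM8A, are counted with the main set only. Positions and sequences were taken from GENCODE 29 (GRCh38), perhaps not the annotation the authors used. Alternatives were a pseudocount of 0.1, a filter at 5 FPKM or none, quantile and median ratio scaling, eBayes with no trend or robust, a replicate block, and omission of each library in turn.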

Additional observations from a re-analysis of the deposited data

How the results depend on the processing

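No splicing factor passed an adjusted p of 0.05 in limma under any alternative run. Over all genes, 1 passed, against 0 without the filter on low values and 1 to 3 when 1 library was left out (3 without vehicle replicate 1). Of 237 alternative fold changes of 17 named genes, 232 kept their direction. Many of these could not turn, because the filters, the eBayes settings and the replicate block leave a fold change as it is. The 17 include the 11 genes whose groups did not overlap, and omission of a library cannot turn those. The count therefore does not measure robustness. The log2 fold change of HNRNPA1 turned to 0.0035 under quantile normalization, that of RBFOX2 ranged from -0.14 to 0.042 when 1 library was left out, that of SF3B2 from -0.0032 to 0.15 and that of SF3A1 from -0.041 to 0.13. The count of genes whose groups did not overlap, 11, became 16 to 26 when 1 library was left out, and such groups separate more often with fewer libraries. The median log2 fold change ranged from -0.0022 to 0.019 for all splicing factors, from -0.0032 to 0.051 for the 3′ splice site factors and from -0.00097 to 0.021 for the hnRNPs, whose median was 0.0015 under quantile normalization and 0.0010 under median ratio scaling. The difference in log2 ratio ranged from -0.044 to 0.011 for MBNL2 over MBNL1, from -0.038 to 0.029 for CELF2 over CELF1 and from -0.0036 to 0.044 for TRA2A over TRA2B. The cause of these shifts was not tested. Same-numbered libraries of the groups had correlations of -0.10, 0.035 and 0.097, against -0.12 to 0.13 for libraries of other numbers. No pairing by number was seen, but 3 libraries per group cannot exclude it. With the replicate number as a block, 1 gene and 0 splicing factors passed. The ratio difference of PTBP2 over PTBP1 was -0.14 again, because such a block cannot change a difference of means between groups of equal size. DESeq2 was not run, since the values are FPKM. Unknown depth limits what can be said of the genes under 1 FPKM.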

Other observations

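Other gene pairs with a near-identical copy on chromosome 21 were read beside U2AF1 and U2AF1L5, chosen after values were seen. SIK1 and SIK1B, whose coding sequences were 99.9% identical, ranged between 5.21 and 7.74 FPKM and between 5.92 and 7.46 FPKM over the 6 libraries. CBS and CBSL, also 99.9% identical, ranged between 0.666 and 1.42 FPKM and between 0.0101 and 0.587 FPKM. SMIM11A and SMIM11B, identical in coding sequence, ranged between 0.0420 and 0.137 FPKM and between 0 and 0.0218 FPKM. Of these pairs, SIK1 with SIK1B was the one whose copies both stood above 1 FPKM in every library.

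The epithelial splicing regulators showed 1 paralog only. ESRP1 was listed at 0 in every library, and ESRP2 made up the whole of that family. In the ELAVL family, ELAVL1, which is made in most cells, took 99.7% to 99.9% of the summed FPKM, and the neuronal paralogs ELAVL2, ELAVL3 and ELAVL4 the rest. NOVA1 and NOVA2, regulators of neuronal splicing, averaged 0.00221 and 0.0152 FPKM in rhCCL20 libraries and 0 and 0.00550 FPKM in vehicle libraries. KHDRBS1, the broadly made member of its family, averaged 84.0 ± 4.96 FPKM in rhCCL20 libraries and 80.9 ± 0.832 FPKM in vehicle libraries (SD, n = 3 each), and KHDRBS2 was listed at 0.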
